A study of Mus musculus with 9 samples.

Results

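Messenger RNA levels of 9 genes of tryptophan breakdown and NAD metabolism were followed in mouse bone marrow-derived DCs. The genes were chosen by symbol, without use of their values, and each symbol matched 1 of the 55471 genes in the deposited counts. They are *Ido1*, *Ido2*, *Afmid*, *Kmo*, *Kynu*, *Nampt*, *Nmnat1*, *Nmnat3* and *Cd38*. All 9 passed the filter on low counts and were among the 16260 genes tested. The cells were DCs grown with GM-CSF from bone marrow of WT C57BL/6 mice, female donors aged 8 to 20 weeks. They were left unstimulated, or received LPS at 100 ng/mL or IFN-β at 1000 U/mL for 6 h. LPS is a glycolipid of bacterial membranes, whereas IFN-β is the type I interferon made during viral infection. Each of the 3 groups had 3 libraries with the letters A, B and C. The labels do not say whether these are separate cultures or animals, so p-values measure the spread between these libraries, which may be technical. The comparisons ask how a bacterial and an antiviral signal, which give DCs contrasting metabolism, change these genes.

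Tryptophan is opened by the IDO enzymes, and the product is trimmed to kynurenine by the formamidase AFMID. KMO hydroxylates kynurenine, and KYNU cleaves the hydroxylated product on the way to quinolinate, from which cells can build NAD de novo. Most cells instead recycle nicotinamide: NAMPT joins it to a ribose phosphate, and the NMNAT enzymes complete NAD, NMNAT1 in the nucleus and NMNAT3 in mitochondria. CD38 is an ectoenzyme that splits NAD. In DCs the IDO enzymes are known for depleting tryptophan and releasing kynurenine, which restrains T cells.

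The libraries held 33425803 to 43735199 counts on genes. Levels in CPM are counts relative to the library size after TMM scaling, and 3 counts correspond to 0.0674 to 0.106 CPM. All 6 DC markers listed were tested, and their summed level was 4330 to 5180 CPM in unstimulated, 6090 to 6730 in LPS-activated and 4850 to 5130 in IFN-β-treated DCs. Macrophage markers (5 of 5 tested) were also abundant, at 1660 to 2690 CPM. Neutrophil markers (4 of 7 tested) summed to 8.98 to 23.4 CPM, and the markers of B cells and of T and NK cells to at most 0.495 CPM. Mast cell and basophil markers (1 of 4 tested) reached 9.95 CPM and plasmacytoid DC markers (1 of 3 tested) 2.48 CPM. The GM-CSF cultures thus carried DC and macrophage transcripts together, and fewer cells of a type cannot be told apart from less RNA per cell. The cytokine gene *Il12b* rose by 10.05 on the log2 scale with LPS (adjusted p = 5.26e-10), where IFN-β gave 0.33 (adjusted p = 0.134). The interferon-induced gene *Ifit1* rose by 6.47 with LPS and 4.93 with IFN-β (adjusted p = 2.69e-07 and 6.76e-06).

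LPS raised *Cd38*, *Ido2*, *Kynu* and *Nampt*, by 8.83, 8.27, 6.71 and 4.22 times. It raised *Nmnat1* slightly, and lowered *Kmo* and *Nmnat3*. IFN-β raised *Kynu*, *Nampt* and *Cd38*, by 3.20, 2.52 and 1.95 times, and lowered *Nmnat3*. With an adjusted p-value under 0.05 as the threshold, LPS changed 7 of 9 genes (5 higher, 2 lower), or 77.8%. Of all tested genes, LPS changed 68.2% (32.8% higher and 35.4% lower), so the count alone does not set these genes apart. IFN-β changed 4 of 9 (3 higher, 1 lower), or 44.4%, where 46.9% of all genes changed (23.6% higher and 23.3% lower). IFN-β-treated and LPS-activated DCs differed in 6 of 9 (1 higher under IFN-β, 5 lower), or 66.7%, against 49.1% of all genes (25.8% higher and 23.3% lower). For LPS, IFN-β and IFN-β against LPS, the median log2 fold changes of the 9 genes were 0.91, 0.72 and -0.35. The values of 0.91 and 0.72 are those of *Ido1*, which passed in neither comparison. The medians over all tested genes were -0.04, -0.02 and 0.02. Scaling by library size alone moved the medians of the 9 genes to 0.33, 0.43 and -0.08, and those of all genes to -0.62, -0.32 and 0.29. With that scaling the calls were 4 higher and 3 lower with LPS, 3 and 2 with IFN-β, and 1 and 3 between the stimuli. Of all tested genes, it called 78%, 59.2% and 55.5%, and 21.9%, 22.3% and 77.9% of those calls were higher. Both stimulated groups were compared with the same 3 unstimulated libraries, so the responses are given side by side and are not independent.

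**Figure D1:**
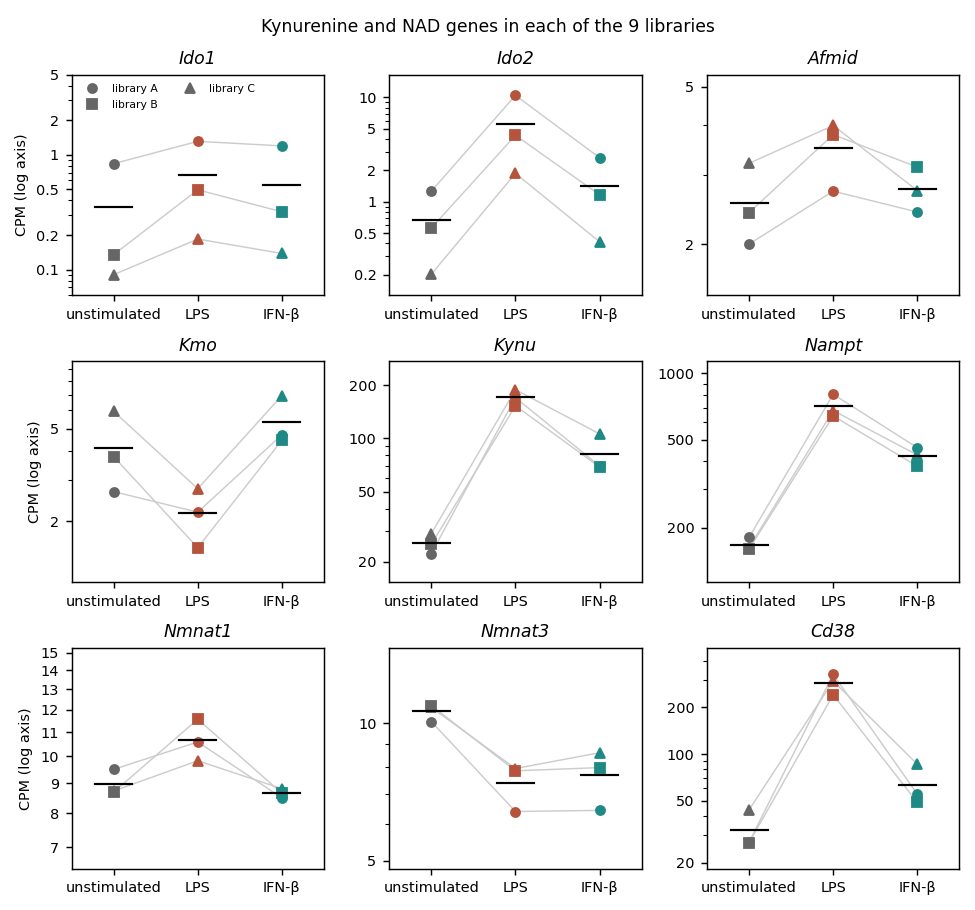
Level of each gene in each of the 9 libraries, in CPM on log axes, by group, with circles, squares and triangles for libraries A, B and C, thin lines joining libraries of the same letter and black bars at the group means. *Kynu*, *Nampt* and *Cd38* stand in 3 separate steps, highest under LPS, while *Ido1* and *Ido2* have library A highest and C lowest in every group, *Ido2* at 10.5 and 1.87 CPM under LPS.

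Per kilobase of exon, and with the range over libraries deciding the order, *Nampt* was the most abundant of the 9 in every group, at a mean RPKM of 33.2 in unstimulated, 140 in LPS-activated and 83.6 in IFN-β-treated DCs. *Cd38* followed at 8.35, 73.8 and 16.3, then *Kynu* at 4.13, 27.8 and 13.3. The ranges of *Cd38* and *Kynu* overlapped under IFN-β and were separate in the other groups. *Nmnat1* was next in every group, at 2.96, 3.51 and 2.85. In unstimulated DCs *Nmnat3* followed (2.12), above *Afmid* (1.29) and *Kmo* (0.876), whose ranges overlapped. *Ido1* (0.194) and *Ido2* (0.186) were the lowest and could not be ordered. Under LPS *Ido2* reached 1.53 RPKM, but its range (0.515 to 2.88) overlapped those of *Afmid* (1.77), *Nmnat3* (1.48), *Kmo* (0.459) and *Ido1* (0.363). The ranges of *Kmo* and *Ido1* overlapped each other and lay below those of *Afmid* and *Nmnat3*. Under IFN-β *Nmnat3* (1.54), *Afmid* (1.40) and *Kmo* (1.14) overlapped as neighbours, above *Ido2* (0.388) and *Ido1* (0.302).

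Entry into the pathway was carried by few transcripts. *Ido1* (ENSMUSG00000031551, chr8:24584136-24597009, minus strand, GRCm38), the inducible tryptophan dioxygenase, was counted 33, 6 and 4 times in the A, B and C libraries without stimulation. The counts were 37, 17 and 6 with LPS, and 51, 12 and 5 with IFN-β. In CPM these were 0.836, 0.135 and 0.0902 unstimulated, 1.31, 0.495 and 0.184 with LPS, and 1.19, 0.319 and 0.138 with IFN-β. Library A was highest in each group, and the groups overlapped. The log2 fold change was 0.91 ± 0.954 (SE) under LPS (adjusted p = 0.417) and 0.72 ± 0.938 under IFN-β (adjusted p = 0.56), in either case smaller than its error. When the library letter was added to the model as a block, the LPS change was 0.99 ± 0.319 and passed the threshold (adjusted p = 0.0122), and the IFN-β change did not (adjusted p = 0.0854). At 4 to 6 counts in several libraries these changes are poorly resolved.

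*Ido2* (ENSMUSG00000031549, chr8:24531892-24576333, minus strand) lies beside *Ido1*, with 7802 bases between them, and encodes a dioxygenase of lower tryptophan affinity. It stood at 1.27, 0.561 and 0.203 CPM in A, B and C without stimulation, from 50, 25 and 9 counts. LPS libraries had 10.5, 4.34 and 1.87 CPM from 296, 149 and 61 counts, and IFN-β libraries 2.65, 1.17 and 0.414 CPM from 113, 44 and 15 counts. All LPS libraries lay above all unstimulated ones, the closest pair being LPS library C and unstimulated library A. *Ido2* rose under LPS by 3.05 ± 0.777 on the log2 scale (adjusted p = 0.00489; exact permutation p = 0.1, the smallest that 3 libraries against 3 can give). The change was 2.22 without LPS library A and 3.83 without unstimulated library A, and past the threshold in both. IFN-β gave 1.11 ± 0.82 (adjusted p = 0.298), and 1.05 ± 0.188 with the letter as a block (adjusted p = 2.99e-04). Within a letter, the IFN-β library had 2.09 (A), 2.08 (B) and 2.04 (C) times the CPM of the unstimulated library, and the LPS library 8.27, 7.73 and 9.23 times. *Ido2* was lower under IFN-β than under LPS by -1.94 ± 0.715 (adjusted p = 0.0437; -1.98 with the block, adjusted p = 4.97e-08). Without the block, this difference passed the threshold narrowly: the adjusted p was 0.216 without LPS library A (-1.13), 0.12 without IFN-β library B or C, 0.0647 without LPS library B and 0.0602 without unstimulated library B.

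The spread by letter was itself tested, a choice made after the values were seen. In the model with condition and letter, *Ido2* was lower in B than in A by -1.23 and in C by -2.54 on the log2 scale (adjusted p = 1.55e-06), rank 33 of 16260 genes by that term. *Ido1* differed by -1.87 and -3.01 (adjusted p = 8.58e-05, rank 171). The letter term passed the threshold for 13.3% of all genes and for 6 of the 9 here. *Kynu* (C against A 0.38, adjusted p = 0.00825), *Kmo* (0.71, adjusted p = 0.00898) and *Cd38* (0.38, adjusted p = 0.0103) were fitted higher in C than in A, opposite to the *Ido* genes. *Nampt* was lower in B than in A by -0.26 and in C by -0.17 (adjusted p = 0.0291). *Afmid*, *Nmnat3* and *Nmnat1* did not pass (adjusted p = 0.098, 0.11 and 0.829). Among the markers, *S100a9*, a granule protein gene of neutrophils and monocytes, was counted 239, 93 and 45 times in unstimulated A, B and C, 163, 50 and 25 times under LPS and 217, 68 and 30 times under IFN-β (adjusted p of the letter term 4.28e-07, rank 17). Of the 4 tested neutrophil markers, *S100a9*, *Ltf* and *S100a8* passed that term and were lower in C than in A (-2.68, -2.74 and -0.30), and *Camp* did not pass. Of the 5 macrophage markers, *Adgre1* (-0.67, adjusted p = 2.53e-05), *Cd68* (-0.53, adjusted p = 5.67e-04) and *Fcgr1* (-0.56, adjusted p = 0.00196) passed and were lower in C. The 6 DC markers did not share a direction. *Flt3* (-1.06, adjusted p = 2.02e-04) and *H2-Ab1* (-0.32, adjusted p = 0.0192) were lower in C, *Zbtb46* was higher (0.29, adjusted p = 0.00864), and the other 3 did not pass. *Kit*, the tested mast cell marker, was higher in C (0.96, adjusted p = 4.61e-04). The summed neutrophil markers were highest in library A of each group, at 21, 23.4 and 17.3 CPM, as were the macrophage markers, at 2104, 2416 and 2692 CPM. The B cell sums were also highest in A, at 0.481, 0.495 and 0.281 CPM. The DC sum was highest in A in unstimulated (5176 CPM) and LPS-activated DCs (6729 CPM), but in C under IFN-β (5129 CPM). The sums of mast cell and basophil markers and of plasmacytoid DC markers were lowest in A of each group. These sums consisted mostly of *Kit* and of *Ccr9*, and *Ccr9* did not pass the letter term (adjusted p = 0.303). The part of any of these cells in the *Ido1* and *Ido2* values was not tested.

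Downstream, *Afmid* (ENSMUSG00000017718, chr11:117825924-117839908, plus strand), the formamidase that yields kynurenine, was 2.0, 2.40 and 3.20 CPM in unstimulated libraries. It was 2.72, 3.79 and 3.99 CPM with LPS and 2.41, 3.13 and 2.73 CPM with IFN-β, and the groups overlapped. The log2 fold change under LPS was 0.47 ± 0.208 (adjusted p = 0.0682), and it passed with the letter as a block (0.47 ± 0.147, adjusted p = 0.0108). It also passed without unstimulated library C (adjusted p = 0.0182) or LPS library A (adjusted p = 0.0248). Its sign turned with scaling by library size alone (-0.12, adjusted p = 0.664). IFN-β gave 0.12 ± 0.209 (adjusted p = 0.677). The values of *Afmid* are uncertain, because 1566 of its 3539 exon bases (44.2%) are shared with an overlapping gene model on the same strand, *Gm20708*, which had 0 counts, and reads on more than 1 gene are left uncounted by the counting used.

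*Kmo* (ENSMUSG00000039783, chr1:175620381-175662116, plus strand), the mitochondrial monooxygenase, was 2.69, 3.80 and 5.93 CPM in unstimulated DCs. LPS libraries had 2.19, 1.54 and 2.76 CPM and IFN-β libraries 4.71, 4.46 and 6.93 CPM. LPS libraries were below the unstimulated library of the same letter in 3 of 3 pairs, although LPS library C lay just above unstimulated library A. *Kmo* fell by 0.94 ± 0.313 on the log2 scale under LPS (adjusted p = 0.0207; exact permutation p = 0.2). The fall did not pass without unstimulated library C (-0.59, adjusted p = 0.0885) or without LPS library B (-0.74, adjusted p = 0.0847). IFN-β gave 0.37 ± 0.291 (adjusted p = 0.328; 0.39 ± 0.147 with the block, adjusted p = 0.0356). IFN-β libraries all lay above LPS libraries, by 1.31 ± 0.312 (adjusted p = 0.00539), the only 1 of the 9 genes past the threshold in that direction.

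*Kynu* (ENSMUSG00000026866, chr2:43555329-43682715, plus strand), the kynureninase, moved the other way under LPS. Its levels were 22.2, 25.1 and 28.9 CPM in unstimulated, 170.2, 153.1 and 188.7 CPM in LPS-activated and 69.7, 68.7 and 106 CPM in IFN-β-treated DCs. The 3 groups did not overlap. *Kynu* rose by 2.75 ± 0.175 under LPS (adjusted p = 1.95e-07) and by 1.68 ± 0.169 under IFN-β (adjusted p = 2.59e-05), and was lower under IFN-β than under LPS by -1.07 ± 0.164 (adjusted p = 3.33e-04). Consecutive steps of the route therefore changed unequally. Within a library, the ratio of *Kynu* to *Kmo* per kilobase was 6.36, 5.09 and 3.74 unstimulated, 59.6, 76.2 and 52.4 with LPS, and 11.4, 11.8 and 11.8 with IFN-β. The means were 5.06 ± 1.31, 62.7 ± 12.2 and 11.7 ± 0.251 (SD, n = 3), with no overlap between any groups (exact permutation p = 0.1 for each pair, the smallest possible). This ratio does not depend on the scaling between libraries. The pairs of genes for such ratios were chosen after their values were seen.

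**Figure D2:**
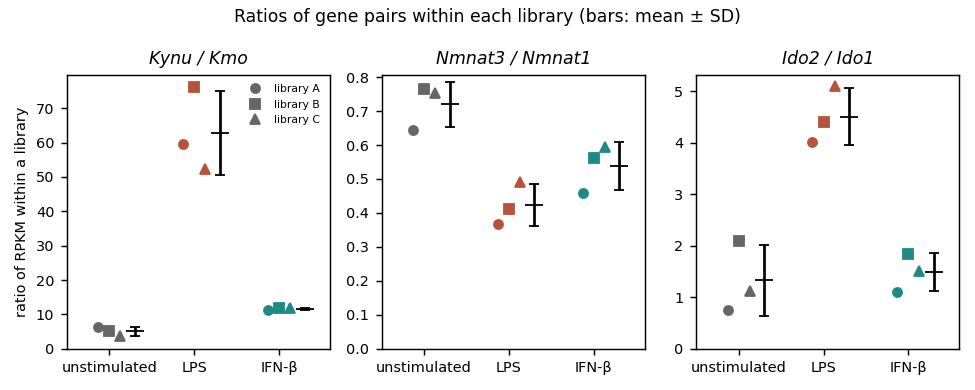
Ratio of RPKM of paired genes within each library, by group: *Kynu* to *Kmo*, *Nmnat3* to *Nmnat1* and *Ido2* to *Ido1*, with the mean and SD of the 3 libraries beside the points and axes from 0. The *Kynu* to *Kmo* ratio is 52.4 or more in the LPS libraries and at most 11.8 in the others, and the *Ido2* to *Ido1* ratio is above 4 only under LPS.

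The *Ido2* to *Ido1* ratio varied less between letters than either gene. It was 0.761, 2.09 and 1.13 in unstimulated, 4.02, 4.40 and 5.10 in LPS-activated and 1.11, 1.84 and 1.51 in IFN-β-treated libraries. LPS libraries were above both other groups (exact permutation p = 0.1 against each), and IFN-β and unstimulated libraries overlapped (exact permutation p = 0.7). Counts of *Ido1* as low as 4 enter these ratios.

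In NAD salvage, *Nampt* (ENSMUSG00000020572, chr12:32819545-32853349, plus strand) was both the most abundant of the 9 and raised by either stimulus. RefSeq places a start of *Nampt* at the base after the following 100 bases of chr12:32820235-32820334 (GRCm38.p6, plus strand). The *Nmnat3* sequence, from chr9:98296470-98296569 on the plus strand, is set beside it as the counterpart that fell under both stimuli. Both stretches lie outside the annotated exons of their genes but inside the annotated genes, which begin before them at chr12:32819545 and chr9:98287435. Capitals mark a match to the NF-κB-type core GGNNNTTCC.
Nampt: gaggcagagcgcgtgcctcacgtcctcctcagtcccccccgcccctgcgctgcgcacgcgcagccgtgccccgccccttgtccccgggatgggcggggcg
Nmnat3: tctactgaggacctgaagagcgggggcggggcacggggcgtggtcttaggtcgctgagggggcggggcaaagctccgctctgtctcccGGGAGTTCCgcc
Over 300 bases (250 before the start), the *Nampt* window was 76.3% G or C and held 36 CpG, where the median of 32851 windows was 52.7% and 7 CpG. The *Nmnat3* window was 49% G or C with 13 CpG. Such windows were given for 6 of the 9 genes, but the 250 bases before the RefSeq start lie wholly in an annotated exon for *Cd38* and to 197 bases for *Kmo*. On either strand, none of the 6 genes' windows held the interferon-response core GAAANNGAA, present in 8.56% of all windows, or the STAT-type core TTCNNNGAA, present in 8.3%. The core GGNNNTTCC was present in 18.5% of all windows and, of these genes, in *Nmnat3* and *Afmid*. Such matches describe letters in a short window and show neither binding nor its absence.

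The *Nampt* levels were 180.6, 160 and 162.6 CPM in unstimulated libraries, 804.3, 641.5 and 678.8 CPM with LPS and 460.8, 379.8 and 426.9 CPM with IFN-β. The groups stood apart, with the IFN-β libraries between the others. *Nampt* rose by 2.08 ± 0.108 on the log2 scale under LPS (adjusted p = 5.12e-08) and by 1.33 ± 0.106 under IFN-β (adjusted p = 6.18e-06). It was lower under IFN-β than under LPS by -0.75 ± 0.105 (adjusted p = 1.75e-04). The same-letter ratios were narrow, at 4.46, 4.01 and 4.18 for LPS and 2.55, 2.37 and 2.63 for IFN-β.

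The last step of NAD synthesis changed far less. *Nmnat1* (ENSMUSG00000028992, chr4:149467572-149485202, minus strand), the nuclear enzyme, was 9.5, 8.69 and 8.73 CPM in unstimulated, 10.6, 11.6 and 9.83 CPM in LPS-activated and 8.50, 8.66 and 8.81 CPM in IFN-β-treated DCs. LPS libraries were the highest, by 0.25 ± 0.0865 on the log2 scale (adjusted p = 0.0248), but with scaling by library size alone *Nmnat1* was lower under LPS (-0.33, adjusted p = 0.00754). The LPS call was also lost without unstimulated library B (adjusted p = 0.0919), unstimulated library C (0.0846) or LPS library B (0.096). IFN-β gave -0.05 ± 0.0865 (adjusted p = 0.655), and with library size alone a lower value that passed (-0.36, adjusted p = 0.00745). IFN-β libraries were below LPS libraries by -0.30 ± 0.087 (adjusted p = 0.0148). That difference did not pass without LPS library B (adjusted p = 0.0525) or with scaling by library size alone (-0.03, adjusted p = 0.837).

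*Nmnat3* (ENSMUSG00000032456, chr9:98287435-98420438, plus strand), the mitochondrial enzyme, was 10.1, 10.9 and 10.8 CPM in unstimulated DCs. It was 6.40, 7.87 and 7.96 CPM with LPS and 6.44, 7.99 and 8.62 CPM with IFN-β. All stimulated libraries lay below all unstimulated ones. *Nmnat3* fell by 0.52 ± 0.124 under LPS (adjusted p = 0.0034) and by 0.47 ± 0.122 under IFN-β (adjusted p = 0.00937). The difference between the stimuli was 0.05 ± 0.126 (adjusted p = 0.776), with libraries that overlapped. The ratio of *Nmnat3* to *Nmnat1* per kilobase within a library was 0.720 ± 0.0661 in unstimulated DCs (SD, n = 3), 0.424 ± 0.0627 after LPS and 0.538 ± 0.0697 after IFN-β. Both stimulated groups lay below the unstimulated group (exact permutation p = 0.1 each), and they overlapped each other (exact permutation p = 0.2).

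On the side of NAD use, *Cd38* (ENSMUSG00000029084, chr5:43868553-43912375, plus strand) was 27.0, 26.9 and 43.7 CPM in unstimulated DCs. It was 325.8, 240.6 and 295.1 CPM with LPS and 55.2, 48.8 and 85.9 CPM with IFN-β. The groups did not overlap. *Cd38* rose by 3.14 ± 0.252 under LPS (adjusted p = 1.11e-06), the largest estimate of the 9 genes with all libraries included, and by 0.96 ± 0.238 under IFN-β (adjusted p = 0.00702). IFN-β-treated DCs were lower than LPS-activated DCs by -2.18 ± 0.242 (adjusted p = 3.26e-05). The LPS to unstimulated ratio differed by letter, at 12.1, 8.96 and 6.76 in A, B and C, and the IFN-β ratio was 2.04, 1.82 and 1.97.

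**Figure D3:**
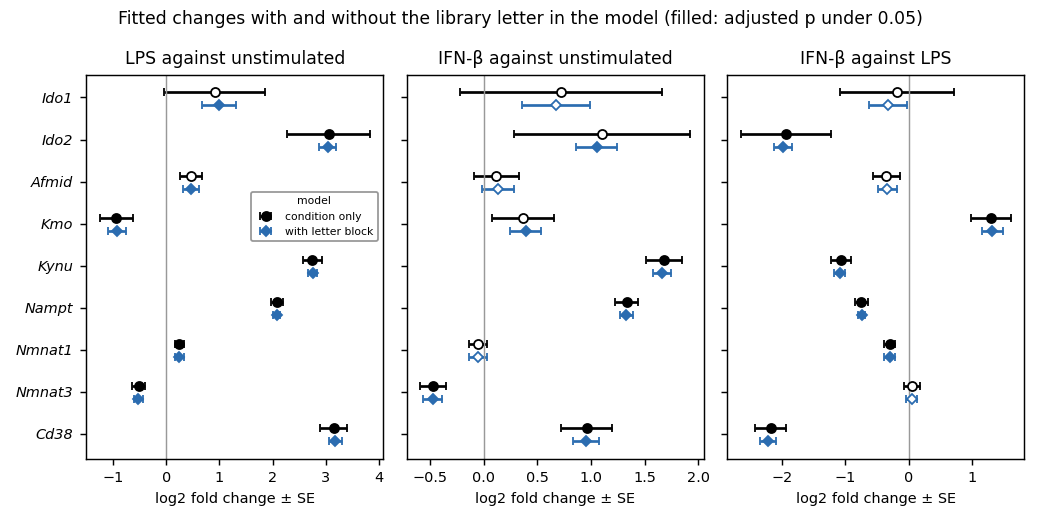
Fitted log2 fold change ± SE of the 9 genes in the 3 comparisons, from the model with condition only (black circles) and with the library letter as a block (blue diamonds), filled where the adjusted p-value is under 0.05. The estimates nearly coincide while the errors of *Ido1* and *Ido2* shrink with the block, for *Ido2* under IFN-β from 0.82 to 0.188.

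Of 45 further genes of these pathways, listed from textbook knowledge, 34 were tested. Under LPS 28 of them changed (10 higher, 18 lower), under IFN-β 20 (10 higher, 10 lower), and 19 differed between the stimuli (10 higher under IFN-β, 9 lower). These are 82.4%, 58.8% and 55.9% of the 34, beside 68.2%, 46.9% and 49.1% of all tested genes. Scaling by library size alone gave 6 higher and 23 lower with LPS, 5 and 18 with IFN-β, and 20 and 7 between the stimuli. The balance of directions in these lists thus rests on the scaling, as it does over all tested genes. There the share of calls that were higher moved from 48.1%, 50.3% and 52.5% to 21.9%, 22.3% and 77.9%. The median log2 fold changes of the 34 genes were -0.22 (LPS) and -0.145 (IFN-β). The examples named from each list are the genes with the largest changes past the threshold.

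Of 8 other kynurenine route genes, 4 were tested, and LPS raised 1 and lowered 3, where 68.2% of all genes changed. *Haao*, which turns the KYNU product toward quinolinate, was 5.60, 6.49 and 6.45 CPM in unstimulated, 1.42, 1.78 and 1.04 CPM in LPS-activated and 3.04, 4.04 and 3.40 CPM in IFN-β-treated DCs. It fell by 2.12 ± 0.192 under LPS (adjusted p = 2.75e-06) and by 0.83 ± 0.173 under IFN-β (adjusted p = 0.00279), so the enzyme after KYNU moved opposite to *Kynu*. *Kyat1* and *Kyat3*, which convert kynurenine to kynurenic acid, parted under LPS. *Kyat1* fell by 1.73 ± 0.309 (adjusted p = 4.92e-04) and *Kyat3* rose by 1.67 ± 0.142 (adjusted p = 1.77e-06). Under IFN-β *Kyat1* fell by 1.68 ± 0.297 (adjusted p = 0.001), at levels of at most 1.28 CPM, and *Kyat3* gave -0.02 ± 0.148 (adjusted p = 0.94). *Got2*, the mitochondrial aspartate aminotransferase, fell by 0.44 and 0.30 (adjusted p = 3.79e-05 and 0.00135). *Tdo2*, *Aadat* and *Acmsd* had 0 counts in every library, and *Qprt*, which makes the NAD precursor from quinolinate, had at most 5 counts in any library.

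Of 10 other NAD synthesis and salvage genes, 8 were tested. LPS raised 1 and lowered 4, and IFN-β raised 1 and lowered 1, or 62.5% and 25% of the 8, beside 68.2% and 46.9% of all genes. *Pnp*, the purine nucleoside phosphorylase that also acts on nicotinamide riboside, rose from 52.5, 40.5 and 35.5 CPM to 452.8, 366.3 and 389.9 CPM with LPS and 265.6, 225 and 272 CPM with IFN-β. Its log2 fold changes were 3.23 ± 0.151 (adjusted p = 2.53e-08) and 2.57 ± 0.147 (adjusted p = 1.12e-06). Like *Nampt*, it was lower under IFN-β than under LPS (-0.66 ± 0.139, adjusted p = 0.00243). *Pnp* shares 18% of its exon bases with a gene model of 0 counts. *Naprt* and *Nmrk1*, which start NAD synthesis from nicotinic acid and nicotinamide riboside, fell under LPS by 0.94 ± 0.278 (adjusted p = 0.0113) and 0.66 ± 0.111 (adjusted p = 3.15e-04). Their values under IFN-β were -0.14 (adjusted p = 0.67) and 0.04 (adjusted p = 0.798). *Naprt* shares 11.8% of its exon bases with *Eef1d*. *Nnt*, the transhydrogenase, gave -0.70 under LPS (adjusted p = 0.0352), is split over 2 identifiers sharing 47.4% of its exon bases, and lost the call without unstimulated library A or C or LPS library A or B, so its value is uncertain.

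All 12 tested genes of the 14 other NAD-using and nicotinamide-removing genes changed under LPS (4 higher, 8 lower), where 68.2% of all genes did, and 7 of the 12 (58.3%) under IFN-β (4 higher, 3 lower), where 46.9% of all genes did. No gene of this list was higher under LPS with scaling by library size alone, where 9 were lower. With that scaling 78% of all tested genes were called under LPS, and 21.9% of those calls were higher. *Nt5e* (CD73), an ectonucleotidase that can act on nicotinamide mononucleotide, fell from 5.73, 5.39 and 10.6 CPM to 0.601, 0.437 and 1.29 CPM with LPS and 2.88, 2.31 and 3.48 CPM with IFN-β. The log2 changes were -3.21 ± 0.387 (adjusted p = 2.57e-05) and -1.32 ± 0.327 (adjusted p = 0.00695), so *Nt5e* and *Cd38*, both at the cell surface, moved in opposite directions. *Parp1*, the main DNA-damage poly(ADP-ribose) polymerase, fell by 1.86 ± 0.0893 under LPS (adjusted p = 3e-08) and by 0.82 ± 0.0855 under IFN-β (adjusted p = 3.39e-05). *Sirt3*, the mitochondrial deacetylase, fell by 1.56 and 0.70 (adjusted p = 4.28e-06 and 0.00203), with exons that overlap genes on the opposite strand. *Enpp1* fell by 1.26 under LPS (adjusted p = 0.00737). Under IFN-β it gave -0.68 (adjusted p = 0.111; 0.00148 with the block).

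Of 13 genes of tryptophan use, transport and kynurenine sensing, 10 were tested, of which 7 changed under LPS (4 higher, 3 lower) and 8 under IFN-β (5 higher, 3 lower). The shares of 70% and 80% stand beside 68.2% and 46.9% of all genes. *Wars*, the tryptophanyl-tRNA synthetase, rose from 49.4, 48.7 and 46.5 CPM to 212.4, 178.9 and 158.9 CPM with LPS and 121.4, 103.5 and 108.5 CPM with IFN-β. The log2 changes were 1.93 ± 0.105 (adjusted p = 6.88e-08) and 1.21 ± 0.104 (adjusted p = 9.52e-06). *Tiparp*, a target of the aryl hydrocarbon receptor that senses kynurenine, rose by 1.86 and 0.93 (adjusted p = 9.25e-07 and 4.15e-04). Of the same list, and named after their values were seen, *Ahrr* and *Cyp1b1* did not rise past the threshold. *Ahrr* gave -0.31 under LPS (adjusted p = 0.00368) and -0.27 under IFN-β (adjusted p = 0.0129, and 0.061 without IFN-β library B). *Cyp1b1* gave 0.21 and -0.54 (adjusted p = 0.646 and 0.298), and *Cyp1a1* was not tested. *Il4i1*, an amino acid oxidase that acts on tryptophan, rose by 2.07 and 0.57 (adjusted p = 1.03e-07 and 0.00242). With scaling by library size alone its IFN-β change did not pass (0.26, adjusted p = 0.112). Moreover, 83.9% of its exon bases overlap *Tbc1d17* on the opposite strand, and the strand setting of the counting is not stated. *Slc3a2*, the heavy chain shared by several amino acid transporters, rose by 1.84 ± 0.0654 under LPS (adjusted p = 5.34e-09) and by 0.92 ± 0.064 under IFN-β (adjusted p = 2.71e-06). Chosen after its values were seen, *Slc7a5*, the light chain that carries tryptophan and kynurenine with *Slc3a2*, fell by 1.12 ± 0.112 under LPS (adjusted p = 5.98e-06). Under IFN-β it gave -0.34 ± 0.108 (adjusted p = 0.025), a call lost without unstimulated library B or C or IFN-β library A (adjusted p up to 0.0914). The *Slc3a2* to *Slc7a5* ratio per kilobase was 7.93 ± 0.803, 61.6 ± 4.09 and 19.1 ± 2.85 (SD, n = 3) in unstimulated, LPS-activated and IFN-β-treated DCs.

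**Figure D4:**
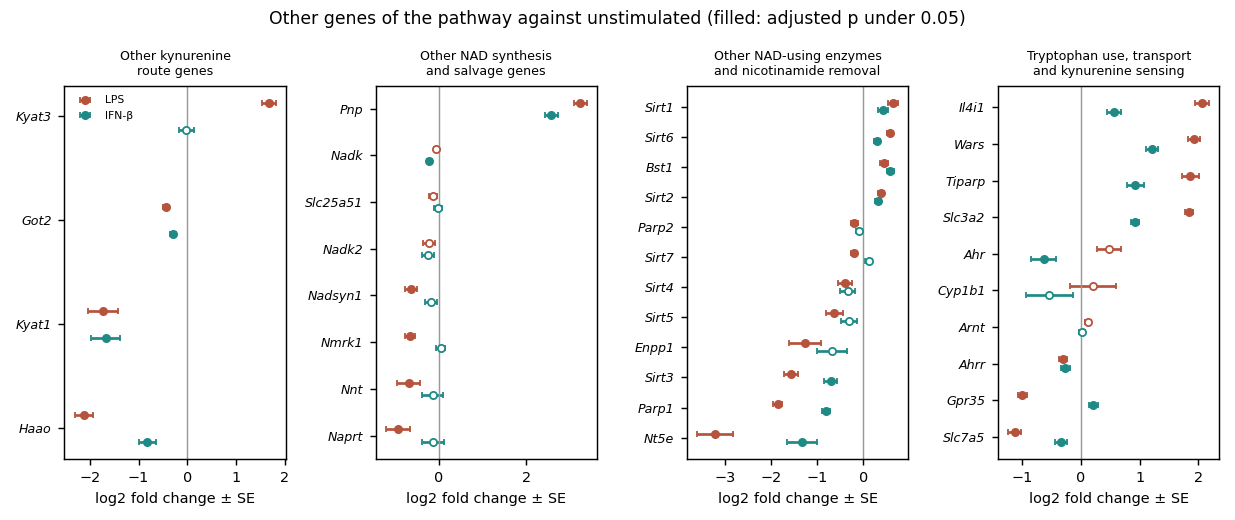
Fitted log2 fold change ± SE of the 34 other tested genes of the pathways under LPS (red) and IFN-β (teal), in 4 lists ordered by the LPS value and filled where the adjusted p-value is under 0.05. *Pnp* (3.23 under LPS) and *Nt5e* (-3.21) mark the extremes.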

How the data were processed

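RNA was sequenced from 9 libraries of mouse bone marrow-derived DCs, prepared after removal of ribosomal RNA. Per the study's methods and the submitters' processing notes, reads were trimmed with Trim Galore (version 0.6.0), mapped to GRCm38 (mm10) with STAR and counted on GENCODE genes. The notes give STAR 2.7.8a, and the study's methods name another STAR release. Those methods also name an earlier GENCODE release than the M21 used here for exon lengths and overlaps. The overlaps given may thus differ from those in the counting. The table the authors deposited holds raw counts for each gene and library, neither normalized nor filtered; the strand setting of the counting is not given in the sources used here. Columns were matched to samples by the submitters' library codes.

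Counts were analysed with edgeR 4.0.16 in R 4.3.3: filterByExpr with the groups, TMM factors, 1 term per condition over all 9 libraries, quasi-likelihood F-tests and Benjamini-Hochberg adjustment over 16260 genes. The SE is the absolute log2 fold change divided by the square root of F. The fit was tested on simulated data in which few genes changed, evenly in both directions, and the letters had no effect. That test therefore does not cover the scaling or the pairing of these data. Single values were also compared by exact two-sided permutation tests of log2(CPM + 0.5), 3 libraries against 3, and ratios of genes likewise. RPKM divides CPM by the exon length not shared with a same-strand gene in GENCODE M21, which held 55144 of the 55471 identifiers. Promoter sequences came from RefSeq (GRCm38.p6).

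Replicate letters are shared across groups. After subtraction of group means, libraries with the same letter correlated at 0.134 to 0.546 in all 9 pairs. Libraries with different letters correlated at -0.48 to 0.0622. The subtraction itself pushes these values below 0 where same-letter values are positive, so they are not separate evidence of pairing. The letters thus pair the libraries in these data, although the labels do not say what they mark, and they were entered as a block in a second fit. Replicates differed by more than sampling noise in all 9 within-group pairs.

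The genes and the lists were chosen with earlier results of these data known. Genes named were the 9 genes, up to 4 genes of each other list with the largest changes past the threshold, the 3 genes most correlated with each of the 9 (some of them not reported here), and markers of stimulation. Alternatives were DESeq2 1.42.0, library size only, upper-quartile factors, other low-count filters (none, or at least 10 counts in every library), the 2 compared groups alone, an added requirement of a log2 fold change of 1 or more in size, the block, and each library left out. The fit without the 3 A libraries, the letter term and the within-library ratios were added after seeing the data.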

Additional observations from a re-analysis of the deposited data

How the results depend on the processing

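With a log2 fold change of 1 or more in size also required, 4 of the 9 genes were called under LPS, 2 under IFN-β and 4 between the stimuli, and of the 34 other pathway genes 13, 4 and 7, beside 33.4%, 12.6% and 17.4% of all tested genes. Scaling by library size alone turned the sign of *Nmnat1* under LPS (-0.33), of *Afmid* under LPS (-0.12) and IFN-β (-0.19), and of the *Ido1* difference between the stimuli (0.095). Leaving out 1 library at a time turned the sign of 4 values that passed no threshold. These were *Ido1* under IFN-β (-0.58 to 2.30), *Ido1* between the stimuli (-1.48 to 0.71), *Afmid* under IFN-β (-0.028 to 0.32) and *Nmnat3* between the stimuli (-0.053 to 0.16). Leaving out 1 library gave 5 to 8 changed genes of the 9 under LPS, 4 under IFN-β and 4 to 6 between the stimuli. The calls over all tested genes were then 10455 to 11234, 6467 to 7742 and 6858 to 8049. With all 9 libraries they were 11084, 7631 and 7989. The replicate block gave 9, 6 and 6 of the 9 genes, and 73.5%, 56.3% and 58% of all genes. It added *Ido1* and *Afmid* under LPS and *Ido2* and *Kmo* under IFN-β, and changed no other call of the 9. The *Ido2* difference between the stimuli did not pass with library size only (adjusted p = 0.059) or DESeq2 (0.0668). *Nmnat1* under LPS did not pass with upper-quartile factors (0.13), without the low-count filter (0.126) or with the 2 groups alone (0.051). *Afmid* under LPS passed with DESeq2 (0.0394). *Kynu*, *Nampt* and *Cd38* kept direction and threshold in all 3 comparisons under every alternative run, apart from the requirement on size. Without the 3 A libraries 7, 4 and 5 of the 9 genes were called, the *Nmnat1* difference being lost (adjusted p = 0.0626). Over all tested genes that fit called 10380, 6492 and 7068. The filter of at least 10 counts in every library removed *Ido1* and *Ido2*. Depth limits *Ido1*, with 4 to 51 counts, and causes of these changes were not tested. No protein table was used, so the paralog identities planned were not run.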

Other observations

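As a description over the 9 libraries, which share groups and letters, the following tested genes were among those whose log2 CPM followed each gene most closely. *Kynu* was followed by *Lrrk2* and *Gpd2* (Pearson r of 0.997 and 0.996), and *Nampt* by *Fndc3a*, *Calhm6* and *Cep350* (r of 0.999, 0.999 and 0.999). *Cd38* was followed by *Nlrp3*, *Nectin2* and *Spata13* (0.996, 0.995 and 0.995). *Ido1* was followed by *Plekhg2*, *Klhl24* and *Tns3* (0.965, 0.965 and 0.962), and *Ido2* by *Sec62*, *Gm28279* and *Heca* (0.985, 0.980 and 0.980). *Kmo* was followed by *Sgsm1*, *Glrx2* and *Cmc4* (0.966, 0.964 and 0.958) and *Afmid* by *Gm43145*, *Gm6745* and *Rbm6* (0.957, 0.955 and 0.954). *Nmnat1* was followed by *Gpat4*, *Gm9888* and *Stk25* (0.979, 0.974 and 0.972) and *Nmnat3* by *Rbm10* and *Ylpm1* (0.987 and 0.984). *Sgsm1* showed the letter spread of *Kmo*, at 3.32, 4.04 and 6.90 CPM in unstimulated, 1.73, 1.84 and 2.55 CPM in LPS-activated and 4.33, 4.70 and 8.09 CPM in IFN-β-treated libraries. *Nlrp3*, the inflammasome sensor, was 94.1, 96.6 and 125.7 CPM unstimulated, 515.4, 488.9 and 521.1 CPM with LPS and 144.7, 145.8 and 189.5 CPM with IFN-β, in the order of the *Cd38* groups.

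Of the genes outside the rule, named after their values were seen, *Ahr*, the aryl hydrocarbon receptor, gave 0.49 ± 0.205 under LPS (adjusted p = 0.0557, and 2.79e-05 with the block). The sign of the LPS value of *Ahr* turned with scaling by library size alone (-0.099, adjusted p = 0.697). Under IFN-β it was lower, by -0.63 ± 0.207 (adjusted p = 0.0277), a call lost without unstimulated library B (adjusted p = 0.0565), unstimulated library C (0.109) or IFN-β library A (0.0953). Between the stimuli *Ahr* differed by -1.12 ± 0.208 (adjusted p = 0.00117). *Gpr35*, a receptor for kynurenic acid, fell by 0.997 ± 0.0782 under LPS (adjusted p = 9.33e-07), and its value under IFN-β was 0.21 with TMM scaling and -0.09 with library size only.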
